A study of Mus musculus with 15 samples.

Results

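Transcripts of meiosis and of sperm formation were followed in cultured spermatogonial stem cells of the mouse, which divide in the testis as the germline stem cells and come before meiosis. The 36 genes are textbook markers of spermatocytes and spermatids, taken as a fixed list of symbols. All 36 were on the array, among 18193 genes with a symbol of their own. Each gene was read from 1 probe set, the one with the highest mean on the log2(signal + 16) scale, and no gene was left out for being dim. The cultures were enriched for stem cells and came from male C57BL/6 mice aged 6 days. One group was maintained in serum-free defined medium with GDNF, soluble GFRalpha1 and bFGF. A second group had GDNF and GFRalpha1 withdrawn for 18 h, and in the remaining groups both were given back after such a withdrawal for 2, 4 or 8 h. The labels state bFGF for the maintained cultures and do not say whether it stayed in the others. They name no culture kept without the factors for longer than 18 h, so time in culture and handling cannot be told apart from the return of the factors. There were 3 arrays in each of the 5 groups (15 arrays), and this small number limits precision. Nothing in the labels ties the 3 to separate cultures, so p-values measure only the spread between these samples, which may be technical.

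GDNF binds its co-receptor GFRalpha1 and activates the receptor kinase RET, and it keeps spermatogonial stem cells dividing without differentiating. In the testis, spermatogonia that differentiate enter meiosis as spermatocytes, in which cohesin with meiotic subunits shapes each chromosome into an axis, the synaptonemal complex joins paired homologues, and DNA breaks made by SPO11 are repaired by recombination. The products become spermatids, which pack their DNA first with transition proteins and then with protamines and build an acrosome and a tail. Some meiotic genes are known to be transcribed in spermatogonia long before their proteins are used.

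Most of the meiotic structural genes were above the level of sensory receptor genes on every array, and most spermatid genes were not. That level was taken on each array as the 95th percentile of signal over 78 odorant, vomeronasal, taste and trace amine receptor genes, and it lay between 59.7 and 95.4 in MAS5 signal units, the arbitrary linear scale of the deposited values. No detection calls were used. Of the 36 genes, 16 were above the receptor-gene level on all 15 arrays, 7 on some arrays and 13 on none. With the 99th percentile of the receptor genes in its place the counts on all and on none were 14 and 17. With the 40th percentile of all probe sets, 19 were above it on every array and 4 on none (Pgk2, Tnp1, Tnp2 and Spata16), so "never above" refers to the 95th percentile of the receptor genes alone. Among all 18193 genes the shares at the receptor-gene level were 44.6%, 20.9% and 34.6%, close to the split of the 36 members. The 16 comprised 4 of 7 cohesin and chromosome axis genes, 4 of 4 genes of the synaptonemal complex centre, 4 of 11 recombination genes, 3 of 7 spermatocyte regulators, enzymes and surface proteins, and 1 of 7 spermatid genes. A gene above the level is called transcribed here in that sense only. RNA from a few advanced cells and a low level in every cell cannot be told apart in such bulk samples, and nor can fewer cells of a type and less RNA per cell.

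Promoter sequences are shown here for members at both ends of the range of signal. RefSeq promoter windows of 300 bases, from 250 before to 50 after the transcript start (build GRCm38.p6), were matched by symbol for 31 of the 36 genes, with the first listed window used where a gene had several. The windows for Syce2 at chr8:84871861-84872160 (plus strand) and Stag3 at chr5:138280259-138280558 (plus) belong to the pair of transcribed members with the highest mean signal and a window. Those for Pgk2 at chr17:40208560-40208859 (minus) and Tnp2 at chr16:10788606-10788905 (minus) belong to the pair with the lowest. Sycp3 at chr10:88459337-88459636 (plus) and Hormad1 at chr3:95559427-95559726 (plus) were added after the counts were seen, as axis genes of which the first was transcribed and the second never above the level, and which hold the same motifs. Each is written 5′ to 3′ on the gene's strand, and capitals mark CACGTG, or GCGGGAA on either strand.
Syce2: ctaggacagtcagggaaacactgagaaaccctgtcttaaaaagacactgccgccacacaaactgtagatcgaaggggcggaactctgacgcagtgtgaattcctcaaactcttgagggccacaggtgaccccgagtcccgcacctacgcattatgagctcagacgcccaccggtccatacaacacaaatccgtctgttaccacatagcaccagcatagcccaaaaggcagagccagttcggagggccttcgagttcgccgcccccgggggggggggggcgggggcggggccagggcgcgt
Stag3: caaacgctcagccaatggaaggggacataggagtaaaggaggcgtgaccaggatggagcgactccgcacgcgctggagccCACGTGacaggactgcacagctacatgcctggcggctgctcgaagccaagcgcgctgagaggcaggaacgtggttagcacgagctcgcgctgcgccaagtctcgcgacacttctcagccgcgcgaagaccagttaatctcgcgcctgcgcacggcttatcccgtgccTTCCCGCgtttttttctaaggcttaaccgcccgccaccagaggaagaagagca
Sycp3: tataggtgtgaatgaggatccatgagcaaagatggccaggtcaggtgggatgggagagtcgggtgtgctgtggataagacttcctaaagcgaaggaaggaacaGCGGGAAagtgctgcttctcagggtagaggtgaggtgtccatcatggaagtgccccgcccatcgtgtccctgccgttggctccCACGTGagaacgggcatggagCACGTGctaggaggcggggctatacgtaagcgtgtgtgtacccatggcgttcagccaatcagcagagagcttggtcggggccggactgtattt
Hormad1: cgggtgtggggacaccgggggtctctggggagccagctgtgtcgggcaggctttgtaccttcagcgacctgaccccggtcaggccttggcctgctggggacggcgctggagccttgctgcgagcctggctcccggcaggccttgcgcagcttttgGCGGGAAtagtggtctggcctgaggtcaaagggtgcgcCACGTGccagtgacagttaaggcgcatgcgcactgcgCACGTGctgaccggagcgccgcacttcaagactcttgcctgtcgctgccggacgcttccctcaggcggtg
Pgk2: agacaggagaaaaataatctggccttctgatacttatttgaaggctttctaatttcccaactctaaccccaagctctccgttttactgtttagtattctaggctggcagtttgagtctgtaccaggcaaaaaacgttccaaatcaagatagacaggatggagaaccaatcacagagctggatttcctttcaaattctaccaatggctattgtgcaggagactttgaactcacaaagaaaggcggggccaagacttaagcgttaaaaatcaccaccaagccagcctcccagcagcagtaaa
Tnp2: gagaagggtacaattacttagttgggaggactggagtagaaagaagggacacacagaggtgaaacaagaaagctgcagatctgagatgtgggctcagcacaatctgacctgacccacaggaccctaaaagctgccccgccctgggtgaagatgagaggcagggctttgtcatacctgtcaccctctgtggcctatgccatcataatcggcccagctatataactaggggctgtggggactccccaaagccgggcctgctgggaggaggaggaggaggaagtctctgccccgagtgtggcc
These windows differ widely in CpG content. The ratio of observed to expected CpG was 1.06 for Stag3 and 0.704 for Syce2, against 0.291 for Pgk2 and 0.174 for Tnp2.

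The medians followed the same order over all members with a window. The ratio was 0.704 in the 13 transcribed genes, 0.534 in the 7 above the level on some arrays and 0.436 in the 11 that were never above it. Other genes on the array had medians of 0.814, 0.596 and 0.337 in the same classes, from 6685, 2963 and 4773 windows, so the order was not particular to the meiotic genes. Among the spermatid genes the median was 0.174 over 5 windows, and the lowest ratio of all members was 0.0487, for the protamine gene Prm1. Single genes departed from the order. Sycp2, transcribed on every array, had 0.363, and Ccna1, never above the level, had 0.852. Hormad1, never above the level, had 0.713, close to the 0.666 of Sycp3.

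**Figure D1:**
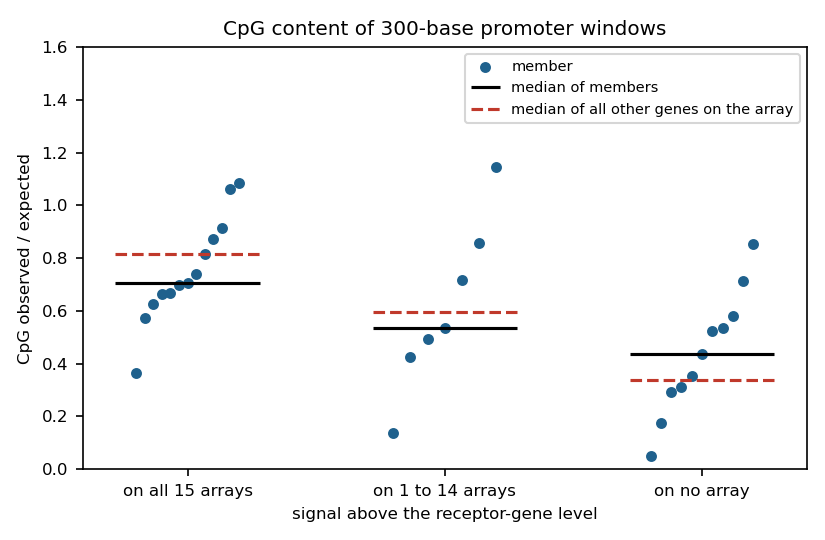
Ratio of observed to expected CpG (y axis) in the 300-base promoter windows of the members, sorted by the number of arrays on which their signal was above the receptor-gene level (x axis). Each point is a gene, black lines are the medians of the members (0.704, 0.534 and 0.436) and dashed lines those of the other genes on the array (0.814, 0.596 and 0.337).

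Short motifs were counted in the same windows on both strands. CACGTG, the palindromic letters of an E-box, occurred in 8 of the 31 windows (25.8%), against 8.99% of the windows of other genes on the array and 7.24% of all 27025 windows. The holders were Stag3, Sycp3, Sycp1, Tex12 and Brdt among transcribed genes, and Hormad1, Piwil1 and Spata16 among those never above the level. GCGGGAA, the letters of an E2F site, occurred in 6 (19.4%), against 6.93% of the others and 4.66% of all windows. Those were Stag3, Sycp3, Smc1b, Tex12, Msh5 and Hormad1, and 4 of the 7 axis genes were among them. TGACGT, part of a cyclic AMP response element, occurred in 1 window, that of the testis lactate dehydrogenase gene Ldhc, against 10.01% of the other genes and 7.64% of all windows. The motifs do not overlap in their letters, and a match describes letters only.

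Of the 7 cohesin and axis genes, 4 were transcribed in every group. Stag3 encodes a meiotic cohesin subunit. Its signal was 716, 575 and 637 on the maintained arrays, 814, 919.5 and 1007 after withdrawal, and 901, 999.6 and 902 at 2 h, 943, 605 and 644 at 4 h and 788, 944 and 740.1 at 8 h of replacement. Smc1b encodes the meiotic SMC1 subunit of cohesin. Its values were 490.3, 448 and 483 on the maintained arrays, 626, 529.6 and 592 after withdrawal, and 571, 609 and 698 at 2 h, 494, 543 and 528 at 4 h and 323, 380.4 and 309.5 at 8 h of replacement. The 8 h arrays were the lowest of the 15 for Smc1b and overlapped no other group. Sycp3 and Sycp2 encode the proteins of the lateral elements that line the axis. Sycp3 read 575, 650.2 and 629.8 on the maintained arrays, 761, 1003 and 508 after withdrawal, and 736, 912 and 639 at 2 h, 869.7, 864 and 862 at 4 h and 714, 729.5 and 625 at 8 h of replacement. Sycp2 read 314, 285 and 371 on the maintained arrays, 436, 446 and 379.6 after withdrawal, and 367, 374 and 359.5 at 2 h, 363, 350.5 and 476 at 4 h and 283, 381 and 317 at 8 h of replacement. The maintained arrays were the lowest group on average for Stag3, Sycp2 and Sycp3, although only for Stag3 and Sycp2 did they lie wholly below the withdrawal arrays.

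Rec8 encodes the kleisin subunit that closes the meiotic cohesin ring. Its signal was 16.6, 9.2 and 49.1 on the maintained arrays, 96.5, 62.9 and 162 after withdrawal, and 47.2, 78.9 and 53.1 at 2 h, 57.7, 50.8 and 57.3 at 4 h and 10.3, 45.2 and 15.2 at 8 h of replacement. Only 3 of these values were above the receptor-gene level, 2 after withdrawal and 1 at 2 h. All maintained, 4 h and 8 h values of Rec8 were under the level, and values under it are not ordered here. The HORMA-domain proteins mark unpaired axes. Hormad1 lay between 24.5 and 60.6 with a median of 34.3 and was never above the level, and Hormad2 lay between 29.7 and 84.7 with a median of 57.5 and was above it on 3 arrays.

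All 4 genes of the synaptonemal complex centre were transcribed in every group. Syce2, a protein of the central element, had signals of 2042, 3627 and 2550.4 on the maintained arrays, 2151, 2149 and 2749.6 after withdrawal, and 2012, 2176 and 2557 at 2 h, 1999.7, 3125 and 2548 at 4 h and 1941, 1865 and 1974 at 8 h of replacement. Its 8 h arrays lay below every maintained and every withdrawal array. Syce1, another central element protein, had 604, 671 and 693 on the maintained arrays, 664, 644 and 607 after withdrawal, and 694, 715 and 816 at 2 h, 596, 524 and 471 at 4 h and 605, 624 and 608 at 8 h of replacement. Its 4 h arrays lay below the withdrawal arrays and its 2 h arrays above them. Sycp1, the transverse filament that spans the complex, had 269, 335 and 412 on the maintained arrays, 396, 379 and 214 after withdrawal, and 354, 309.5 and 271 at 2 h, 333, 465 and 418 at 4 h and 319.9, 278 and 344 at 8 h of replacement. Withdrawal replicate 3 gave the lowest Sycp1 value of the 15 arrays. Tex12, a partner of SYCE2, had 305, 500.4 and 337 on the maintained arrays, 270.5, 331 and 165 after withdrawal, and 277, 321 and 292 at 2 h, 254, 333 and 257 at 4 h and 276, 279.8 and 225 at 8 h of replacement. Its highest value was on a maintained array and its lowest again on withdrawal replicate 3. On that array the ratio of 3′ to 5′ signal of the beta-actin control was 2.77, against 1.10 to 1.75 on the other arrays, and its part in these low values was not tested.

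Recombination genes were divided. Among the members that act in break formation, Spo11, the enzyme that cuts the DNA, lay between 10.1 and 57.9 and Mei4, an accessory factor, between 18.3 and 68.4, both never above the receptor-gene level. Rec114, a partner of MEI4 in the wider meiotic list, was above it on every array (313 to 517). Prdm9, the methyltransferase that places the breaks, lay between 5.3 and 45.4, also never above it. Mei1, another factor of break formation, ranged from 38.4 to 84.3 and was above on 2 arrays. The members of strand exchange, Dmc1 and Psmc3ip, were transcribed, whereas Mnd1, the HOP2 partner in the wider list, lay between 72.5 and 117 and was above the level on some arrays. Dmc1, the meiotic recombinase, read 209, 190 and 201 on the maintained arrays, 171, 144 and 121 after withdrawal, and 153, 173 and 190.5 at 2 h, 173, 179 and 152 at 4 h and 148, 169 and 165 at 8 h of replacement. Psmc3ip, which encodes the DMC1 cofactor HOP2, read 333, 360 and 308 on the maintained arrays, 229, 232 and 142 after withdrawal, and 222, 266 and 327 at 2 h, 265, 316 and 184 at 4 h and 206, 237 and 241 at 8 h of replacement. For both genes every maintained array was above every withdrawal array. The members of crossover formation differed in level. Msh4 lay between 5.9 and 48.5 and was never above the level, its partner Msh5 lay between 16.8 and 118 and was above on 7 arrays, and Mlh3, which acts in crossover resolution, lay between 49 and 118 and was above on 12. Ccnb1ip1, a crossover gene of the wider list, was above on all 15 (211 to 395).

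The X-linked gene Tex11 and Tex15, both needed for meiotic recombination, were transcribed on every array. Tex11 was the steadiest of the transcribed members, with a coefficient of variation of 8.57% over the 15 arrays. Its signal was 592, 548 and 549.8 on the maintained arrays, 606, 571 and 552 after withdrawal, and 595, 627 and 708 at 2 h, 570.3, 665 and 529 at 4 h and 543, 539.6 and 572 at 8 h of replacement. No 2 of its group means differed by more than a ratio of 1.17. Tex15 read 539, 559 and 594 on the maintained arrays, 777, 824 and 616 after withdrawal, and 701, 668 and 546 at 2 h, 707, 819.7 and 1005 at 4 h and 659, 662 and 809.9 at 8 h of replacement. All 3 maintained arrays were below all 3 withdrawal arrays and all 3 arrays at 8 h. Over the 16 transcribed members the coefficient of variation ran from 8.57% to 31.0% (median 18.7%). The ratio of the highest to the lowest group mean ran from 1.17 to 2.04 (median 1.42).

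**Figure D2:**
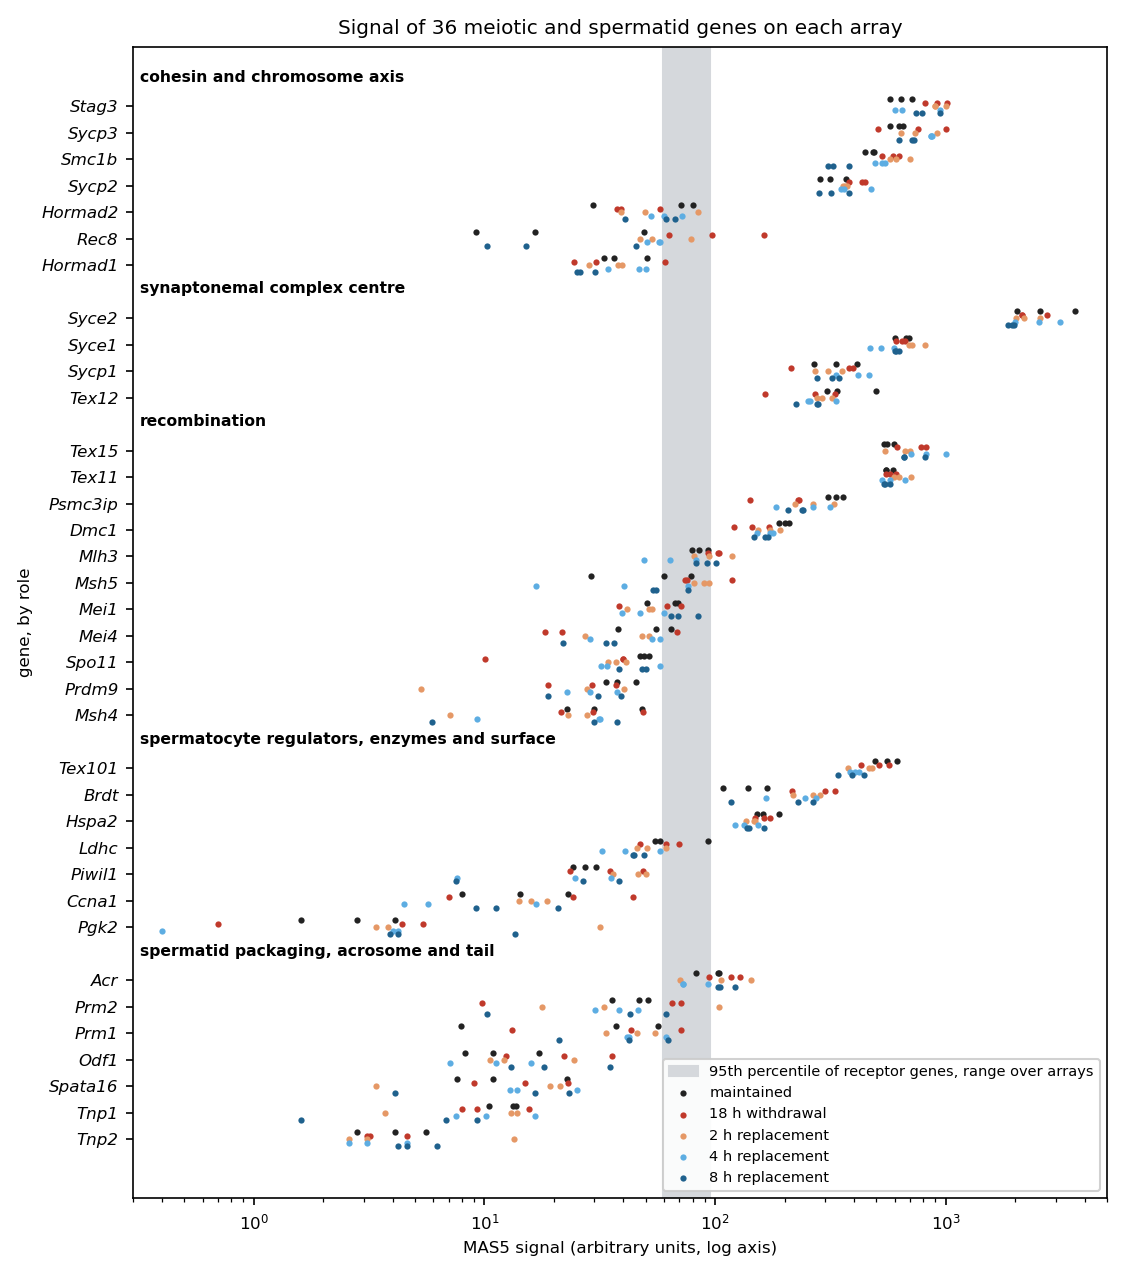
MAS5 signal (log axis, arbitrary units) of the 36 genes on the 15 arrays, grouped by role, with the range of the receptor-gene level (59.7 to 95.4) shaded. Points are arrays coloured by group; the synaptonemal complex genes stand wholly above the band and most spermatid genes below it.

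Among spermatocyte regulators, Brdt, a testis bromodomain protein of spermatocytes and spermatids, varied most of the transcribed members. Its signal was 139, 108 and 168 on the maintained arrays, 300.1, 332 and 216 after withdrawal, and 285, 266 and 217 at 2 h, 246, 166 and 273 at 4 h and 229, 117 and 266 at 8 h of replacement. The maintained arrays lay below all withdrawal and all 2 h arrays, while those at 4 and 8 h spread across the gap. Hspa2, a chaperone of the synaptonemal complex, read 152, 189 and 161 on the maintained arrays, 163, 149 and 173 after withdrawal, and 147, 149 and 137 at 2 h, 154, 122 and 133 at 4 h and 163, 138 and 139.6 at 8 h of replacement. Tex101, a germ cell surface protein, read 491, 615 and 558 on the maintained arrays, 512, 428 and 565 after withdrawal, and 376, 476 and 463 at 2 h, 403, 385 and 422 at 4 h and 342, 442 and 394 at 8 h of replacement. Every 8 h value of Tex101 lay below every maintained value. Pgk2, the testis phosphoglycerate kinase, lay between 0.4 and 31.8 with a median of 4, and Ccna1, cyclin A1, lay between 4.5 and 43.9. Piwil1, the piRNA-binding MIWI, lay between 7.5 and 50.4, so these 3 were never above the level. Ldhc lay between 32.4 and 93.4 and was above it on 1 maintained array.

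Of the 7 spermatid genes, 1 was above the level on every array. The transition protein genes Tnp1 (1.6 to 16.5) and Tnp2 (2.6 to 13.4) were never above it. The protamine gene Prm1 lay between 7.9 and 71.3 and Prm2 between 9.8 and 104, the latter above the level on 2 arrays. The other Prm1 probe sets read 0.2 to 3.5 and 0.1 to 0.8. Odf1, of the sperm tail outer dense fibres, lay between 7.1 and 35.6 and Spata16, of the forming acrosome, between 3.4 and 25.1, both never above the level. Acr, which encodes the acrosomal protease acrosin, was the exception. Its signal was 102, 104 and 82.7 on the maintained arrays, 117, 128 and 94.4 after withdrawal, and 143, 106 and 70.6 at 2 h, 93.5, 72.3 and 72.4 at 4 h and 122, 105 and 102 at 8 h of replacement. Acr was above the 95th percentile of the receptor genes on every array but above their 99th on only 3, whereas Brdt was above the 99th on 14 and the other 14 transcribed members on 15.

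The first comparison asked whether these genes moved when GDNF and GFRalpha1 were withdrawn. Of 36, 2 rose and 0 fell in limma, which fitted log2(signal + 16) over all 5 groups and adjusted p over all genes (Benjamini-Hochberg, threshold 0.05). Of all 18193 genes 4.62% were called, and 2.39% of all genes were called higher, so the members' count of 2 was not far from the background. Rec8 was at 107 ± 50.6 after withdrawal (mean ± SD of signal, n = 3) against 25 ± 21.2 in maintained cultures. That is 3.09-fold higher on the log2(signal + 16) scale (log2 1.63, SE 0.38, limma adjusted p = 0.0227), and the arrays of the 2 groups did not overlap. Its maintained signal was not above the receptor-gene level on any array, so the fitted difference moves with the constant (log2 0.93 with 64 and 2.27 with 1). With the maintained arrays set at that level and the withdrawal arrays taken as read, Rec8 was 1.41-fold higher after withdrawal. Withdrawal replicate 2 (62.9) was under its own receptor-gene level (83.4), so 1.41-fold is not a lower bound. Brdt was at 283 ± 60 against 139 ± 30, or 1.93-fold higher (log2 0.95, SE 0.26, limma adjusted p = 0.0494). The other 2 Brdt probe sets had log2 differences of 0.72 and 0.99, of which only the latter passed when limma p was adjusted over all probe sets (0.252 and 0.0112). Under that adjustment the probe set used here did not pass (limma adjusted p = 0.0742). The probe set that passed was above the receptor-gene level on only 4 of 15 arrays.

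Both calls depended on single arrays and settings. The Rec8 call was lost without maintained replicate 1 (limma adjusted p = 0.0613), maintained replicate 2 (0.107), withdrawal replicate 1 (0.0515) or withdrawal replicate 3 (0.0937). It was also lost with only the groups compared in the fit and with array weights. The Brdt call was lost in 15 of 24 alternatives, among them any single maintained array, withdrawal replicate 1 or 2, any single array at 2 h, 4 h replicate 1 or 3, or 8 h replicate 1 left out. Without withdrawal replicate 3, the array with the high 3′ to 5′ ratio, Brdt remained called (log2 1.12) and 1 member in all was called.

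No other member passed the test on withdrawal. Arrays of the 2 groups did not overlap for 9 of 36 members, against 22.7% of all genes. An unadjusted limma p under 0.05 was found for 10 members and for 19% of all genes. Of the 9, Stag3, Smc1b, Sycp2, Tex15 and Brdt lay higher after withdrawal and Psmc3ip and Dmc1 lower. Spo11 was never above the receptor-gene level. Rec8 is given no order here, as its maintained values and withdrawal replicate 2 were under that level. Psmc3ip was at 201 ± 50.8 against 334 ± 25.8 and missed the threshold (log2 -0.72, SE 0.20, limma adjusted p = 0.0546). Stag3 was at 913 ± 97 against 642 ± 70.6 (log2 0.50, adjusted p = 0.0828) and Dmc1 at 145 ± 25 against 200 ± 9.38 (log2 -0.43, adjusted p = 0.0949). A second probe set had a log2 difference of -0.31 for Psmc3ip and -0.16 for Dmc1. The summed signal of the 7 axis genes was 2030 to 2300 on the maintained arrays and 2731 to 3060 after withdrawal. Sums over the 4 synaptonemal complex genes overlapped (3221 to 5134 and 3482 to 3735). Neither sum was tested, and the axis sum is mostly Stag3, Sycp3, Smc1b and Sycp2, none of them called. The median log2 difference of the 36 was -0.03, beside 0.05 for all genes.

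**Figure D3:**
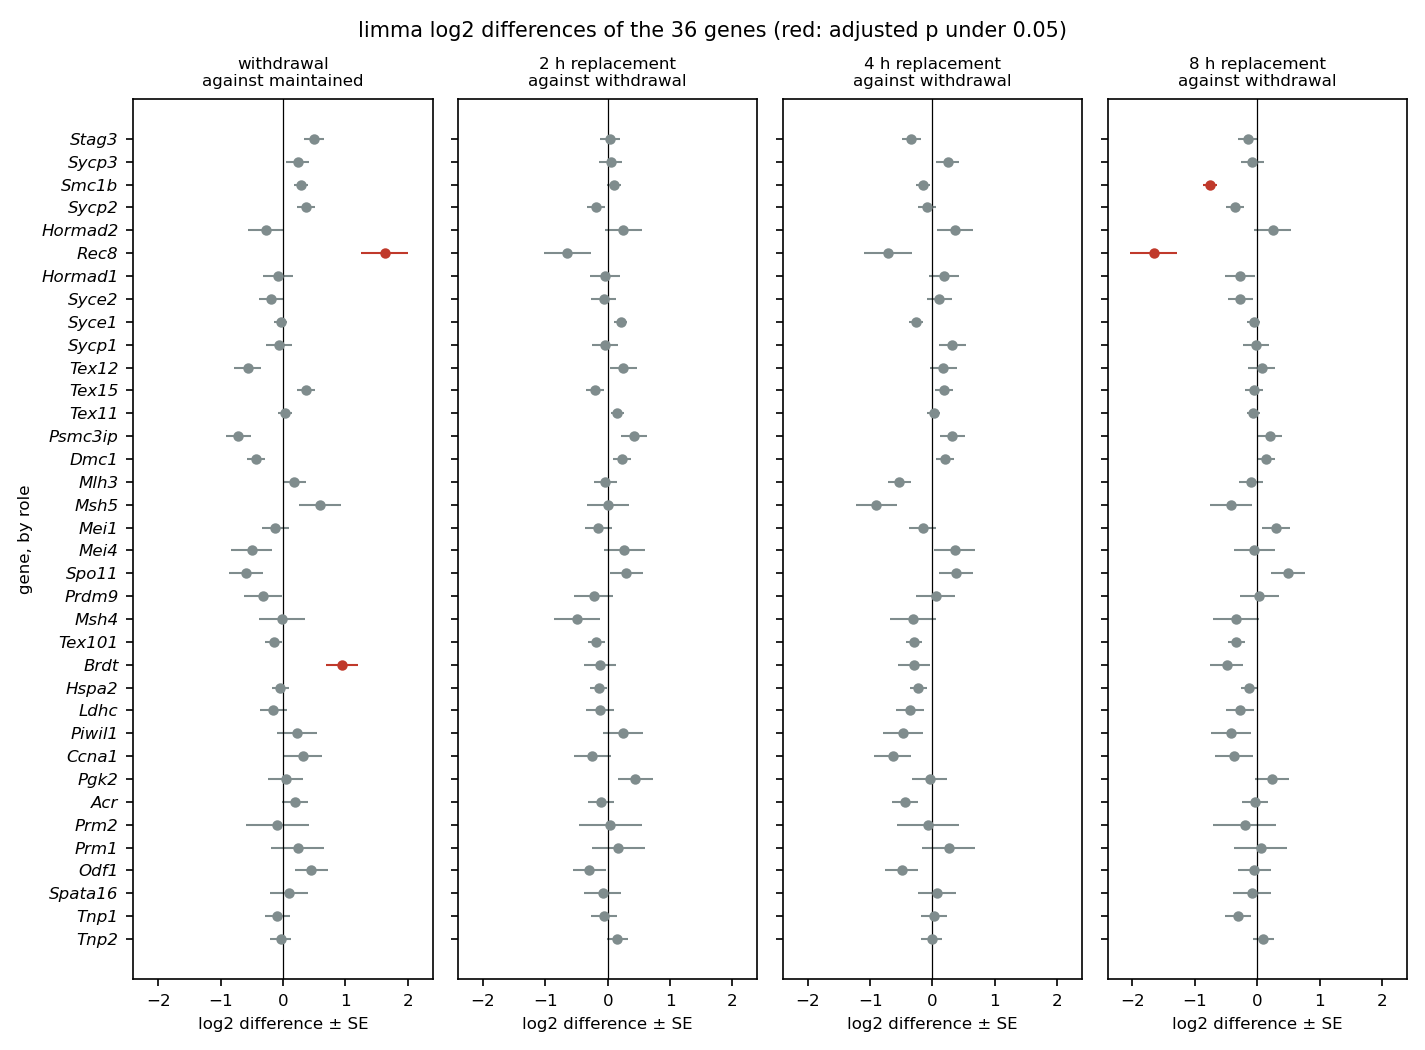
Log2 differences (limma estimates on the log2(signal + 16) scale) of the 36 genes (y axis, by role) for withdrawal against maintained cultures and for each replacement time against withdrawal. Bars are standard errors and red points passed the test. Rec8 and Brdt are called on withdrawal, Smc1b and Rec8 at 8 h against withdrawal, and the other differences in the plot did not pass the test.

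The return of the factors was followed at 2, 4 and 8 h against the same withdrawal arrays, so these comparisons share their control samples with each other and with the first. At 2 h no member was called by limma in a comparison that called 0.0605% of all genes, and 0 members had an unadjusted p under 0.05, against 7.16% of all genes. Groups did not overlap for 3 members (13.3% of all genes): Syce1 was higher at 742 ± 64.8 against 639 ± 29.3, and Sycp2 and Hspa2 lay lower. At 4 h no member was called by limma either, where 1% of all genes was called, and 5 had an unadjusted p under 0.05, against 16.2% of all genes. Groups did not overlap for Mlh3, Syce1, Tex101, Acr and Rec8 (5 members, against 19.1% of all genes). Mlh3, Syce1, Tex101 and Acr lay lower at 4 h. Rec8 is given no order, as its 4 h values and withdrawal replicate 2 were under the receptor-gene level. Mlh3 was at 65.1 ± 16.9, above the receptor-gene level on 1 array, against 99.9 ± 5.8 (log2 -0.53, limma adjusted p = 0.168).

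At 8 h 2 of the 36 were called, both cohesin genes and both lower. In all, 1.41% of genes were called, 0.649% as lower. Smc1b was at 338 ± 37.6 against 583 ± 48.7 after withdrawal, 1.69-fold lower (log2 -0.76, SE 0.11, limma adjusted p = 0.00453). It was lower on 3 of 3 arrays and stayed called in 23 of 24 alternatives, all 15 that leave out an array included. The exception was the fit of only the groups compared (adjusted p = 0.0704). Rec8 was at 23.6 ± 18.9 against 107 ± 50.6 (log2 -1.66, SE 0.38, limma adjusted p = 0.0418), a call lost in 16 of 24 alternatives. As all 8 h values were under the receptor-gene level, the log2 difference ran from -2.30 with a constant of 1 to -0.95 with 64. With the 8 h arrays set at that level and the withdrawal arrays taken as read, Rec8 was 1.24-fold lower at 8 h. Withdrawal replicate 2 was also under the level, so 1.24-fold is not a lower bound. Without withdrawal replicate 3 it had a log2 of -1.35 and an adjusted p of 0.127, and 1 member in all was called. Leaving out withdrawal replicate 1, maintained replicate 1, 8 h replicate 1 or 3, or any array at 2 or 4 h also ended it. Arrays did not overlap for Smc1b, Rec8 and Syce2 (3 members, against 18.2% of all genes). An unadjusted p under 0.05 was found for 4 members and for 12.8% of all genes. The members' median was -0.08 beside 0.02 for all genes, with 10 of 36 positive against 52.7% of all genes. That median and count include the 13 members never above the receptor-gene level, whose values are not ordered.

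**Figure D4:**
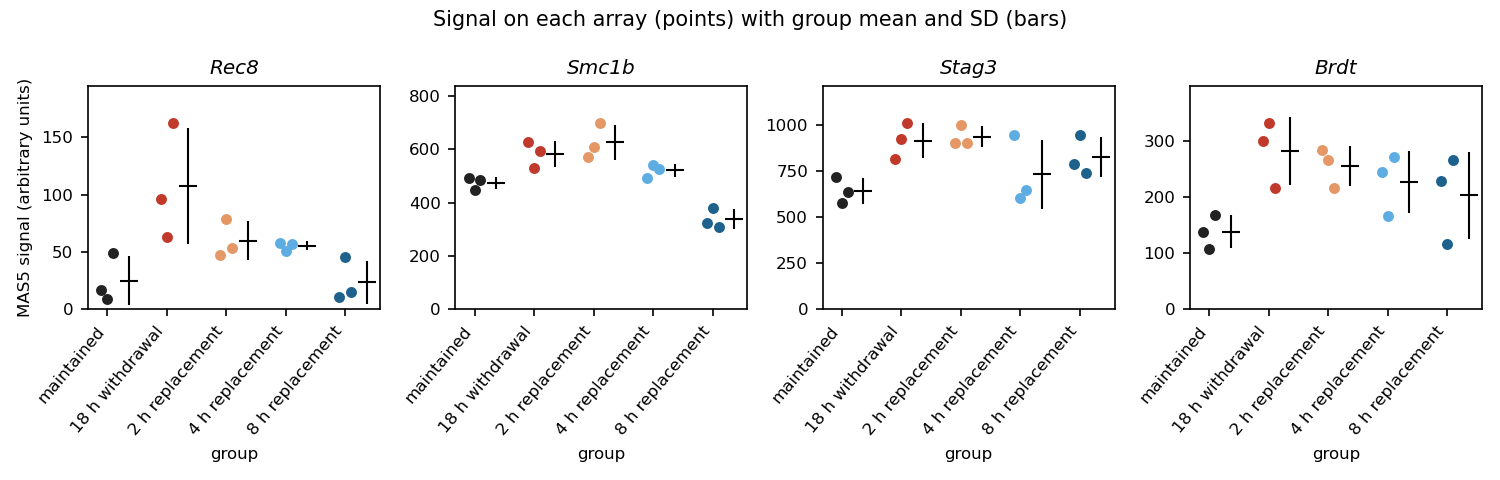
MAS5 signal (linear axes from 0, arbitrary units) of Rec8, Smc1b, Stag3 and Brdt by group, with each array as a point and the group mean and SD as bars (n = 3). Smc1b lies between 309.5 and 380.4 at 8 h, below all other groups, whereas Brdt at 8 h spreads from 117 to 266.

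Marker sums of other cell types also differed between the groups. The summed signal of 14 fibroblast markers was 6368 to 9833 after withdrawal, 4098 to 7109 at 2 h, 10593 to 12966 at 4 h and 10554 to 13564 at 8 h, against 5414 to 7948 in maintained cultures. All 14 were positive at 8 h against withdrawal and 3 were called higher by limma, Col3a1 (2.12-fold), Postn (2.10-fold) and Pdgfra (2.03-fold). Col3a1 was also called higher at 4 h (2.28-fold), and Pdgfra (2.60-fold) and the chymase gene Cma1 (2.79-fold) at 8 h against maintained cultures. The sum of 10 germ cell identity genes was 11426 to 13592 after withdrawal and 13320 to 14348 at 8 h, so the ranges overlapped. That list holds Bcl6b, Id4, Etv5 and Gfra1, called lower on withdrawal, of which Bcl6b, Id4 and Etv5 were called higher at 8 h. Zbtb16, of the same list, was called higher on withdrawal, at 2468 ± 583 against 1414 ± 32.7 (1.71-fold, limma adjusted p = 0.0431). The sum of 9 endothelial and blood cell genes was 985 to 1358 after withdrawal and 1554 to 2217 at 8 h, with Cma1, a mast cell gene, called higher (1.77-fold). Most of that sum came from the mast cell genes Cma1 (mean signal 529 after withdrawal and 938 at 8 h) and Tpsb2 (255 and 567). The sum of 7 Leydig and peritubular genes was 461 to 507 and 585 to 760.4, with the steroid enzyme gene Cyp11a1 called higher (2.46-fold, with 1 of 3 withdrawal arrays above the receptor-gene level), and that of 11 Sertoli cell genes was 709 to 860.2 and 880 to 976. The germ cell helicase gene Ddx4 was at 1266, 1410 and 831 after withdrawal and 973, 984 and 1049 at 8 h. The part of these shifts in the lower Smc1b and Rec8 was not tested. Of the 11 Sertoli cell genes 2 (Clu and Rhox5) were above the receptor-gene level on all arrays, 6 on some and 3 (Wt1, Amh and Cldn11) on none. Of the 9 endothelial and blood cell genes 2 (the mast cell genes Cma1 and Tpsb2) were above it on all, 3 on some and 4 on none. For the 7 Leydig and peritubular genes the counts were 1, 2 and 4, and for the 14 fibroblast genes 11, 1 and 2. Of the identity markers Ddx4, Dazl, Gfra1, Ret, Zbtb16, Sall4, Id4 and Etv5 were above it on all 15 arrays, and Pou5f1 and Bcl6b on some.

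Cultures at 8 h were also set against maintained cultures. No member was called by limma, with 0.253% of all genes called. An unadjusted p under 0.05 was found for 7 members and for 14.6% of all genes. Smc1b was at 338 ± 37.6 against 474 ± 22.4 (log2 -0.47, SE 0.11, limma adjusted p = 0.0983). Tex101 was at 393 ± 50.2 against 555 ± 62 (log2 -0.48, adjusted p = 0.146). Groups did not overlap for 12 of 36 members, against 22.9% of all genes. They were higher at 8 h for Stag3 and Tex15 and lower for Smc1b, Tex101, Psmc3ip, Syce2, Tex12 and Dmc1. The remaining Tnp1, Mei4 and Hormad1 were never above the receptor-gene level and Ldhc was on 1 array only, so these are given no order. A moderated F test in limma over the 5 groups called 1 member, Smc1b (adjusted p = 0.00317), and 3.64% of all genes. Rec8 was next (adjusted p = 0.0524). In the other lists it called Tekt2, Bcl6b, Id4, Etv5, Sohlh1, Dmrt1, Dnmt3b, Rhox5, Cyp11a1, Cma1 and 7 fibroblast genes, led by Col3a1, Postn, Pdgfra and Col1a2.

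Wider lists of meiotic and spermatid genes were split by level as well. Of 27 other meiotic genes on the array (40 listed), 16 were transcribed on all 15 arrays, 8 on some and 3 on none. Of 39 other spermatid genes (40 listed), 3 were transcribed on all arrays, 8 on some and 28 on none. The 3 were Odf2, a centrosome and tail protein, Pdha2, a testis isoform of pyruvate dehydrogenase, and Tbpl1, a relative of the TATA-binding protein. Stra8, the gene through which retinoic acid starts meiosis, lay between 12.5 and 81.6, and Mybl1, a master regulator of spermatocyte transcription, between 7.7 and 20.6. Stra8, Mybl1, Rec114, Mnd1 and Ccnb1ip1 were singled out after their values were seen.

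Few of these wider genes were called. On withdrawal 1 of 27 other meiotic genes rose in limma, the piRNA pathway gene Tdrd5, at 631 ± 67.5 against 337 ± 71.6 (1.85-fold, adjusted p = 0.0282). Of 39 other spermatid genes 1 rose, Tekt2, a protein of the sperm flagellum, at 72.9 ± 18.2 against 10.1 ± 7.98 (3.46-fold, limma adjusted p = 0.000756). The maintained arrays did not reach the receptor-gene level, and with them set at it the difference was 1.06-fold. Only 1 of 3 withdrawal arrays was above the level and all were taken as read, so 1.06-fold is not a lower bound. At 4 h of replacement Mov10l1, a piRNA helicase, fell 1.88-fold to 269 ± 83.7 (adjusted p = 0.0454). At 2 h, at 8 h against withdrawal and at 8 h against maintained cultures, limma called 0 of the 27 and 0 of the 39. With an unadjusted p under 0.05 there were 8 and 5 on withdrawal (19% of all genes), 3 and 1 at 2 h (7.16%), 4 and 1 at 4 h (16.2%), 6 and 2 at 8 h against withdrawal (12.8%), and 8 and 4 at 8 h against maintained cultures (14.6%). A list for differentiating spermatogonia held 8 genes, among them Kitl, which encodes the KIT ligand and is no marker of these cells. Of the 8, withdrawal raised Sohlh1, a factor of early differentiation, 2.59-fold to 277 ± 94.2 and Dmrt1 1.48-fold, and lowered the cyclin gene Ccnd2 1.86-fold. At 8 h Dnmt3b, a DNA methyltransferase, was 1.61-fold lower than after withdrawal (adjusted p = 0.0264). Of 10 germ cell identity genes, 4 fell on withdrawal and 1, Zbtb16, rose (1.71-fold). Those that fell were Bcl6b (5.94-fold), Id4 (3.53-fold), Etv5 (2.96-fold) and Gfra1 (1.83-fold). Bcl6b was above the receptor-gene level on 2 of 3 withdrawal arrays. Bcl6b, Id4 and Etv5 were higher than after withdrawal at 4 h (2.78-fold, 1.80-fold and 2.16-fold) and at 8 h (4.28-fold, 2.04-fold and 3.00-fold).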

How the data were processed

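The submitters' processing notes name MAS5, and the deposited values of 45101 probe sets on 15 arrays were taken as MAS5 signal, a linear intensity. The deposited signals have a trimmed mean of 150.0 on every array, so the authors had scaled them. The MAS5 version is not given in the sources used here. Symbols came from the platform annotation (34945 probe sets with 1 symbol, 932 with several, 9211 with none). The 64 control probe sets were left out of the first of these counts only. Here, signal was transformed as log2(signal + 16), 1 probe set was kept per gene, and the 5 groups were fitted together with limma 3.58.1 in R 4.3.3 (eBayes with trend, two-sided, Benjamini-Hochberg over 18193 genes). No 2 arrays were identical (Pearson's r 0.936 to 0.974 across probe sets), and median signal per array was 42.5 to 55.8. For the members, log2 differences had a median standard error of 0.22. An exact rank test of 3 against 3 arrays can reach no p under 0.1. The fit was tested on simulated data. Members and lists were chosen with earlier results of these data known. Values on every array are given for called and transcribed members. Other listed genes are named where called, at most 4 a list and comparison by size of change. Zbtb16 and Kitl are named beyond that rule. Every sample was used. Alternatives covered the constant, a filter on dim signal, normalization, probe set choice, the samples fitted, array weights, a replicate block and leaving out each array.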

Additional observations from a re-analysis of the deposited data

How the results depend on the processing

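Of the members' differences with an unadjusted p under 0.05, none changed sign under any alternative, and the settings that follow moved a count of members by over 1.5 times. On withdrawal the count of 2 became 1 with a constant of 64, 1 with arrays shifted to 1 median and 0 with only the groups compared, and it ran from 0 to 3 when single arrays were left out. At 8 h against withdrawal the 2 became 1 with a constant of 1, 1 with arrays shifted to 1 median, 1 with the mean of all probe sets, 0 with only the groups compared and 1 with the replicate block, and 1 to 2 without single arrays. At 8 h against maintained cultures array weights called 1 (Smc1b), against 0. In the F test the 1 became 2 without the dimmest 40% of probe sets, 2 with the mean of all probe sets and 5 with array weights, and 1 to 2 without single arrays. The 13 genes never above the receptor-gene level became 4 (Pgk2, Tnp1, Tnp2 and Spata16) against the 40th percentile of all probe sets and 13 to 14 without single arrays, while the transcribed count stayed at 16 without single arrays. The counts at 2 and 4 h stayed at 0 without single arrays.

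No general pairing of samples by replicate number was seen. Over 30 same-numbered pairs the correlation of deviations ran from -0.096 to 0.242 (median -0.01), with 4 over 0.1. Deviations from means of 3 arrays cannot exclude pairing. With the replicate block the Rec8 call at 8 h was lost (limma adjusted p = 0.0509), and the other 3 calls of members stayed.

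Counts over all genes moved more. The 841 on withdrawal became 369 without maintained replicate 3, 181 with only the groups compared and 1345 with array weights. The 256 at 8 h against withdrawal became 59 without 8 h replicate 3, 11 with only the groups compared and 704 with array weights. The 182 at 4 h became 31 without 4 h replicate 2, 443 without 4 h replicate 1, 3 with only the groups compared and 864 with array weights. The 11 at 2 h became 5 without 2 h replicate 3, 0 with only the groups compared and 30 with array weights. The 46 at 8 h against maintained cultures became 13 without maintained replicate 3 and 353 with array weights, and the 663 of the F test became 319 and 1952. With arrays shifted to 1 median the higher share of calls on withdrawal went from 51.6% to 27.8%, at 4 h from 69.2% to 92%, and at 8 h against maintained cultures from 47.8% to 17.1% (29.4% with quantile normalization). The same shift moved the median of all genes from 0.07 to -0.08 at 8 h against maintained cultures, from 0.05 to -0.04 on withdrawal and from 0.02 to -0.04 at 8 h against withdrawal, where the members' medians became -0.22, -0.12 and -0.13. It also turned the members' median from -0.04 to 0.04 at 2 h and from -0.06 to 0.03 at 4 h. Low signal limits the members under the receptor-gene level, whose values are not ordered.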
